A study of Mus musculus with 20 samples.

Results

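The genes examined were 10 transcription factors of the blood lineages, *Runx1*, *Etv6*, *Spi1*, *Cebpa*, *Cebpb*, *Cebpd*, *Cebpe*, *Gfi1*, *Gfi1b* and *Ikzf1*, of 37620 genes counted in mouse bone marrow RNA. They were chosen by name and matched to the count table by Ensembl identifier, 9 under the symbol given here and *Spi1*, which encodes PU.1, under its older symbol *Sfpi1*. The junction table assigned 379 of its 554616 splice junctions to them. Bulk bone marrow cells of 20 recipient mice were measured, in 4 groups of 5, by stranded RNA sequencing after depletion of ribosomal RNA. Mice with U2AF1(WT) or U2AF1(S34F) donor marrow were each given vehicle or sudemycin D6, which makes the 4 groups. In each group the donor marrow carried a doxycycline-inducible human *U2AF1* transgene, wild type or S34F, together with rtTA, the doxycycline-dependent activator, so both genotypes received doxycycline chow (625 ppm, 7 days). Sudemycin D6 or vehicle was infused into the jugular vein during the last 5 days of the induction. Marrow from several donor mice was pooled before transplantation into lethally irradiated congenic recipients of the (C57BL/6 × 129S4Sv/Jae)F1 background, so mice of 1 genotype may share donors, and cells of the recipient that survived irradiation carry no transgene.

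U2AF1 is the spliceosome subunit that contacts the AG at the end of the intron, and the S34F substitution, which recurs in myelodysplastic syndromes, changes which 3′ splice sites are used. Sudemycin D6 binds SF3B1, a subunit of the complex that recognises the branch point just upstream. RUNX1, ETV6 and PU.1 act in stem cells and several lineages. The C/EBP factors drive granulocyte and monocyte differentiation, and GFI1 is required for neutrophil differentiation. GFI1B acts in erythroid cells and megakaryocytes, and Ikaros, the product of *Ikzf1*, in lymphoid cells and beyond. *Runx1* and *Ikzf1* are known for isoforms: *Runx1* is transcribed from a distal and a proximal promoter, and *Ikzf1* exons that encode DNA-binding zinc fingers are included or skipped.

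The gene counts summed to between 41145892 and 62138138 per mouse, and the junction counts to between 34384214 and 64813149. *Xist* had 39145 to 78640 counts in each U2AF1(WT) mouse and 1 to 8 in each U2AF1(S34F) mouse, whereas 4 Y-linked genes summed to 0 to 4 and 10270 to 15034 counts, respectively. Genotype and sex therefore cannot be told apart in any comparison between genotypes. Counts of *U2af1*, to which reads of the human transgene can align, rose with genotype, from 36.1 to 51.0 CPM (counts scaled to the size of the library) under vehicle and from 42.7 to 54.7 under sudemycin D6. Neutrophil markers were abundant, as bulk marrow should have them (6 genes, group medians of the summed level 38212 to 67641 CPM), and their median was higher in both U2AF1(S34F) groups than in both U2AF1(WT) groups. Of the 6, 2 were called higher between genotypes under each treatment, beside 19.7% of all genes under vehicle and 17.2% under sudemycin D6. Summed B-cell markers (5 genes) spread from 13.7 to 143 CPM over mice. Mice 8 and 9 of the sudemycin-treated U2AF1(WT) group stood apart, with 30.8 and 21.4 CPM of B-cell markers against 116 to 143 in the other 3 mice of that group, and values that change without them are given both ways for the results described. Vehicle-treated U2AF1(WT) mouse 2 had 30.8 CPM against 87.8 to 112 in its group, and vehicle-treated U2AF1(S34F) mouse 3 had 134 against 13.7 to 74.2. These mice were left out only 1 at a time. In bulk RNA, fewer cells of a type and less RNA per cell cannot be told apart.

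Each of the 10 genes was expressed in every mouse and passed the filter on low counts. Levels are in CPM after scaling for library composition, and single mice are listed in the order of their numbers, which for U2AF1(WT) are 1, 2, 3, 4 and 5 under vehicle and 6, 8, 9, 10 and 12 under sudemycin D6, and for U2AF1(S34F) are 1, 3, 5, 7 and 11 under vehicle and 2, 6, 9, 10 and 12 under sudemycin D6. Where 4 means are given in a row, they follow this same order of groups. Fold changes and FDR values are from the edgeR quasi-likelihood test over all genes, and FDR<10% was the threshold. Per kilobase of annotated exon, *Spi1* had the highest level in vehicle-treated U2AF1(WT) marrow (107 ± 12.9 CPM per kb, mean ± SD, *n*=5). *Cebpd* (89.8 ± 21.8), *Cebpb* (82.0 ± 20.01), *Cebpe* (79.6 ± 6.83) and *Ikzf1* (71.8 ± 3.40) followed in levels per kilobase. *Etv6* (22.2 ± 1.29), *Cebpa* (20.2 ± 3.64), *Gfi1* (15.0 ± 0.764) and *Runx1* (10.9 ± 0.884) formed a lower set, and *Gfi1b* was lowest at 2.54 ± 0.478. The intervals of 1 SD around the means overlapped between neighbours from *Spi1* through *Ikzf1* and between *Etv6* and *Cebpa*, and did not overlap between the other neighbours in this order.

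**Figure D1:**
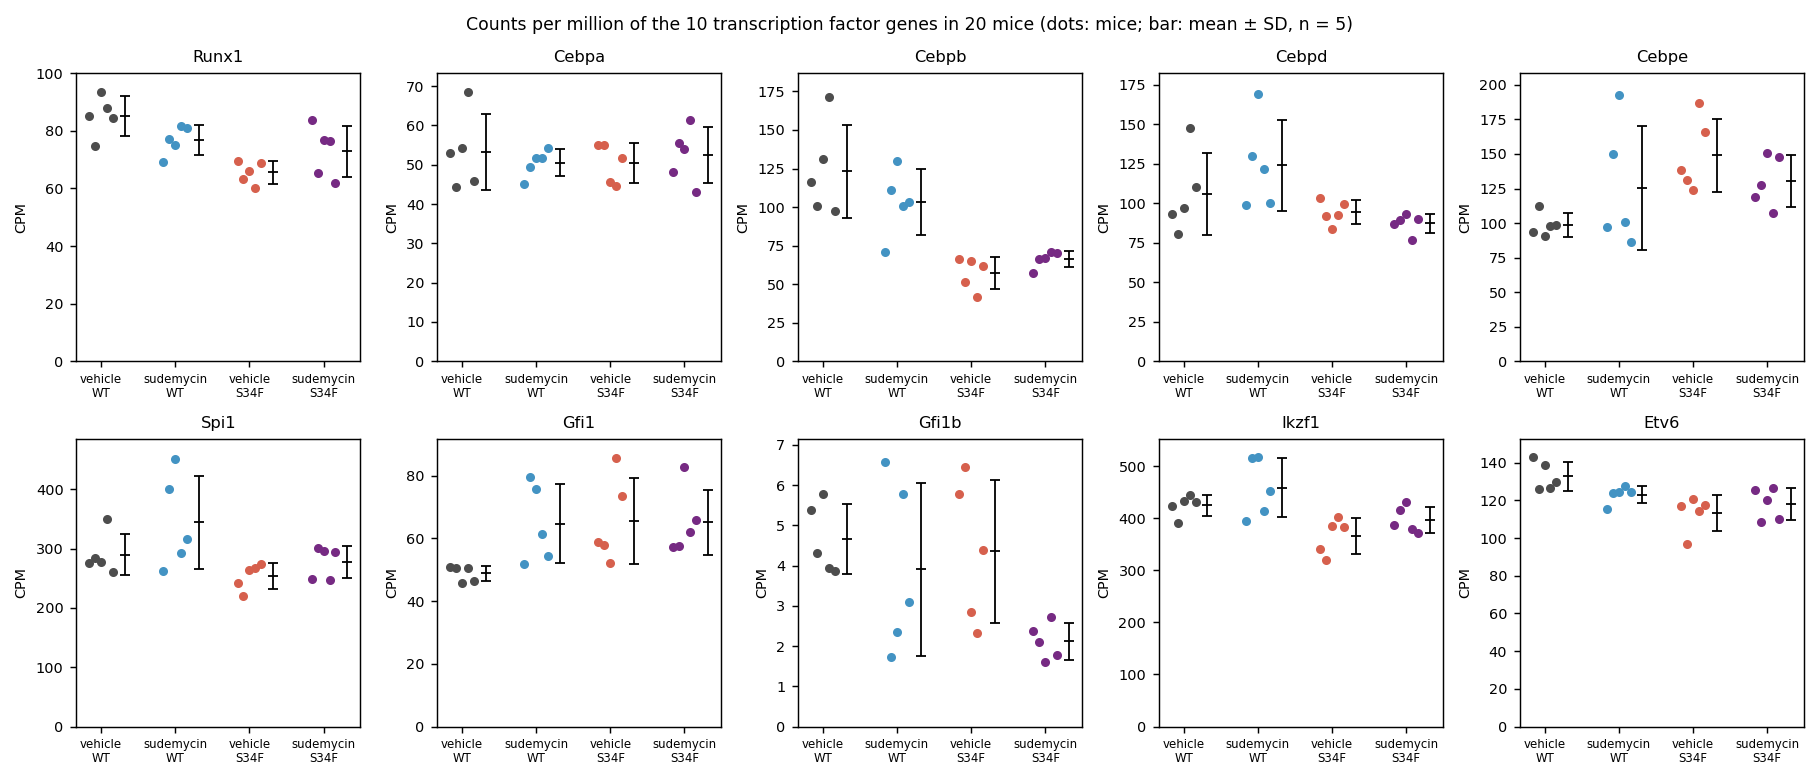
CPM of each of the 10 genes (vertical axes from 0, a panel per gene) in the 4 groups, with a dot per mouse and the mean ± SD (*n*=5). *Cebpb* lies between 41.9 and 70.8 CPM in the 10 U2AF1(S34F) mice and between 70.6 and 171 in the 10 U2AF1(WT) mice, and *Gfi1b* lies below 3 CPM in all 5 sudemycin-treated U2AF1(S34F) mice.

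Under vehicle, the genotypes differed in 6 of the 10 genes. *Cebpb*, *Runx1*, *Etv6* and *Ikzf1* were lower and *Cebpe* and *Gfi1* higher in U2AF1(S34F) than in U2AF1(WT) marrow, and the groups did not overlap in 5 of them. Over all 14817 genes tested, 39.5% were called in this comparison, 19.7% higher and 19.8% lower, and 20.2% did not overlap, so a call is common there. Under sudemycin D6, 3 of the 10 were called between genotypes, *Cebpb*, *Cebpd* and *Gfi1b*, each lower in U2AF1(S34F), against a background of 36.8% of 14677 genes, 17.2% higher and 19.6% lower. The groups did not overlap in 1 of them, *Cebpd* (19.7% of all genes).

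Sudemycin D6 changed fewer of these genes. In U2AF1(WT) marrow none of the 10 was called by edgeR at FDR<10% (background 3.07% of 14763 genes, 1.18% higher and 1.89% lower); 1, *Gfi1*, had an unadjusted *P* under 0.05, and DESeq2 called it. In U2AF1(S34F) marrow 1 of the 10 was called, *Gfi1b*, which fell and whose groups overlapped (background 10.8% of 14714 genes, 4.94% higher and 5.85% lower, with no overlap in 7.8%). Sudemycin-treated U2AF1(S34F) marrow differed from vehicle-treated U2AF1(WT) marrow, the comparison of mutation and drug together with neither, in 6 genes: *Cebpe* and *Gfi1* were higher and *Cebpb*, *Gfi1b*, *Runx1* and *Etv6* lower (background 50.2% of 14761 genes, 25.1% in each direction), with no overlap for 3 of the 6 (24.2% of all genes). The interaction of genotype and drug was called for none of the 10 by edgeR (background 0.013% of 15392 genes), although 3 (*Runx1*, *Cebpe* and *Gfi1*) had an unadjusted *P* under 0.05, so no gene is shown here to respond to the drug differently in the 2 genotypes. Without mice 8 and 9 the interaction moved from −0.54 to −0.11 for *Cebpe*, from −0.41 to −0.18 for *Gfi1* and from 0.30 to 0.32 for *Runx1*. The median log2 fold change of the 10 genes lay between −0.19 and 0.06 over the 5 pairwise comparisons, beside medians of −0.03 to 0.004 over all genes tested. The comparisons share mice with each other: each group enters more than 1 of them.

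**Figure D2:**
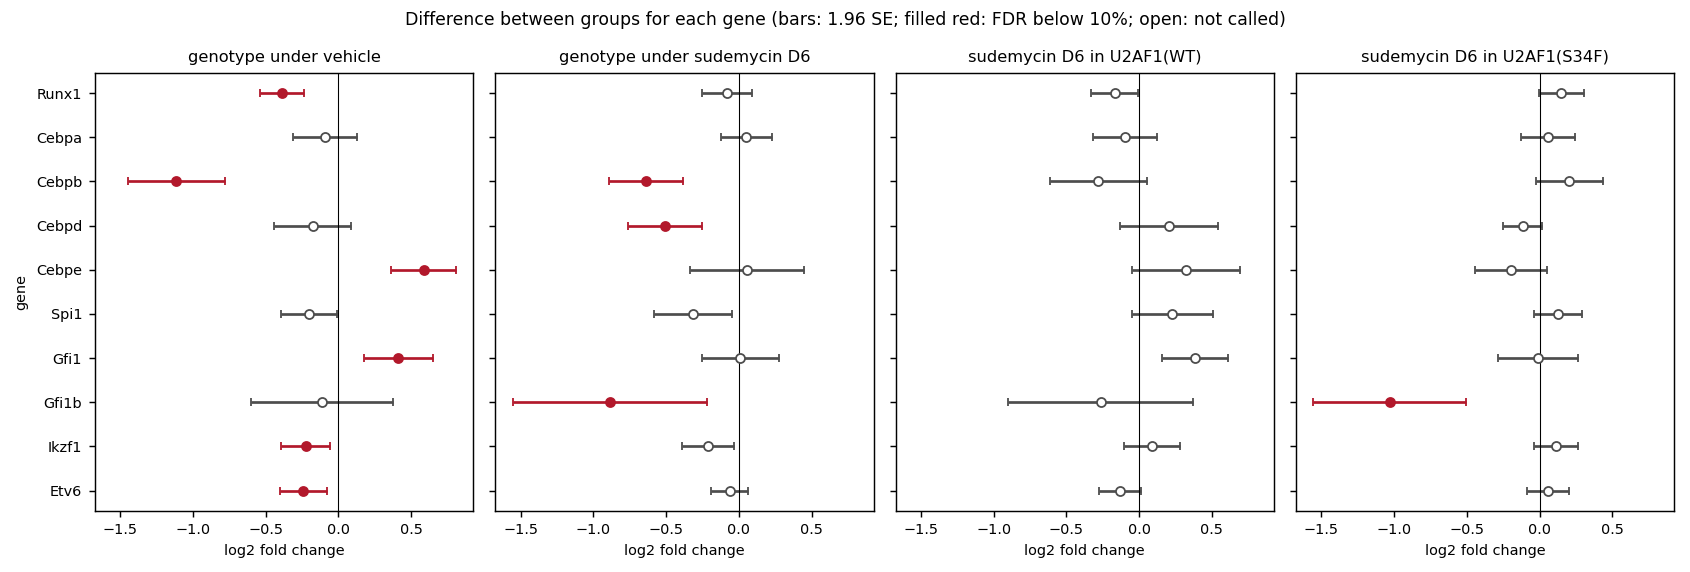
Log2 fold change of each of the 10 genes (horizontal axes) in 4 pairwise comparisons, with bars that span the 95% interval. Filled red symbols mark genes called at FDR<10%, which are 6 for genotype under vehicle, 3 for genotype under sudemycin D6, none for the drug in U2AF1(WT) and 1, *Gfi1b*, for the drug in U2AF1(S34F).

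*Runx1*, the DNA-binding subunit of core-binding factor, was lower in U2AF1(S34F) marrow under vehicle. Its levels in single mice were 85.1, 74.6, 93.6, 88.0 and 84.5 CPM in vehicle-treated U2AF1(WT) and 69.4, 63.2, 66.1, 60.2 and 68.8 CPM in vehicle-treated U2AF1(S34F). All 5 mutant mice were below all 5 U2AF1(WT) mice, and the log2 fold change was −0.39 ± 0.08 (SE; FDR=0.0025). The sudemycin-treated groups had 69.0, 77.2, 75.2, 81.8 and 81.0 CPM in U2AF1(WT) and 83.8, 65.2, 76.7, 76.6 and 62.0 CPM in U2AF1(S34F), which overlapped (−0.08 ± 0.09; FDR=0.52). The drug's own log2 fold change was −0.17 ± 0.08 in U2AF1(WT) and 0.15 ± 0.08 in U2AF1(S34F), opposite in sign, and neither was called (FDR=0.40 and 0.29); the interaction, 0.30 ± 0.12, was not called either (FDR=0.53). Against vehicle-treated U2AF1(WT), sudemycin-treated mutant marrow was lower by edgeR (−0.23 ± 0.09; FDR=0.059), a call that was lost without vehicle-treated U2AF1(WT) mouse 1 or 3 or sudemycin-treated U2AF1(S34F) mouse 6 or 12 (FDR 0.10 to 0.136).

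Reads from the distal promoter of *Runx1* went opposite ways between genotypes at 2 junctions, and neither difference passed the test after adjustment. The gene lies at chr16:92601712-92826311 on the minus strand of mm9, and 97.3% of its junction reads fell on annotated junctions. The junction from the distal first exons into the 254-bp exon (chr16:92695982-92825834) was set against the next junction (chr16:92689377-92695729), which transcripts from either promoter may use. This ratio of distal reads per shared read was 0.827, 0.714, 0.667, 0.765 and 0.917 in U2AF1(WT) mice under vehicle, and 0.524, 0.513, 0.665, 0.679 and 0.575 in vehicle-treated U2AF1(S34F) mice. The groups overlapped by 1 mouse of each, with means of 0.778 ± 0.0980 and 0.591 ± 0.0776 (SD, *n*=5), and a two-sided exact permutation test gave *P*=0.0159, which was 0.159 after adjustment over 10 tests, of 2 ratios in 5 comparisons (the smallest possible *P* is 0.00794). Under sudemycin D6 the ratio was 0.901, 0.547, 1.32, 0.755 and 0.492 in U2AF1(WT) and 0.627, 0.519, 0.767, 0.672 and 0.934 in U2AF1(S34F), with no difference called (exact permutation *P*=0.627). The junction between the 2 distal first exons (chr16:92825949-92826179), also specific to that promoter, had more reads, 248 to 633 per mouse beside 120 to 349 on the first junction. Per shared read it was at 1.49, 1.46, 1.28, 1.12 and 2.02 in U2AF1(WT) mice under vehicle and at 1.99, 1.72, 1.91, 2.93 and 1.73 in vehicle-treated U2AF1(S34F) mice. It was higher in the mutant group on average, and U2AF1(WT) mouse 5 lay within the mutant range (1.47 ± 0.340 and 2.06 ± 0.504, SD, *n*=5; exact permutation *P*=0.0556, adjusted 0.278). Under sudemycin D6 the means were 1.32 ± 0.488 and 1.82 ± 0.300 (exact permutation *P*=0.0952, adjusted 0.317). Both ratios were chosen after the junction counts had been seen.

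The *Runx1* cassette exons are shown by their 3′ splice sites, since that is the element U2AF1 contacts. Each line gives 20 intron bases and 3 exon bases, 5′ to 3′ on the coding strand, with the last 3 intron bases in capitals. The first 2 are sites of coding exons and the third is an unannotated site in the intron after the distal first exons.
Runx1 192-bp exon: cctcccggtccctacacTAGgac
Runx1 254-bp exon: tgtgatgcgtatccccgTAGatg
Runx1 unannotated site: tctgcttcctttgatgtTAGctg
Exon inclusion is given as percent spliced in (Ψ), the mean share of junction reads that include the exon. The 192-bp exon (chr16:92644399-92644590), which lies in the part that encodes the region after the DNA-binding Runt domain, is the *Runx1* coding exon most often skipped here. Its Ψ was 73.4 ± 7.33, 74.3 ± 10.7, 72.2 ± 6.69 and 69.1 ± 4.64% in the 4 groups in turn (mean ± SD, *n*=5), and no comparison was called. The 162-bp exon that follows it downstream was included at group means of 96.6 to 99.6% and not called either. The 254-bp exon, set against a junction that skips it and the 157-bp exon together, had a Ψ of 97.4 ± 1.60, 96.3 ± 4.39, 89.5 ± 8.56 and 89.8 ± 5.55% in the same order. It was called only for mutation and drug together (ΔΨ=−7.59 percentage points; FDR=0.091), and the call was lost without any 1 of 7 mice (vehicle-treated U2AF1(WT) mice 2, 3 and 5 and sudemycin-treated U2AF1(S34F) mice 2, 6, 9 and 12; FDR 0.117 to 0.293). In the event of the 254-bp exon, an inclusion junction also passes over the 157-bp exon and was rarely read, so halving the inclusion reads enlarges the skip. Mean reads were 232 on the distal junction and 3.2 on the skip in vehicle-treated U2AF1(WT) mice. In sudemycin-treated U2AF1(S34F) mice they were 175 and 10.6. The unannotated site took 4.65 ± 3.20% of the reads that leave its 5′ splice site in U2AF1(WT) mice under vehicle, against 0.511 ± 0.745% in U2AF1(S34F) mice under sudemycin D6, where 3 of 5 mice had no such read. This difference was called (−4.14 points; FDR=0.087) and was also lost without any 1 of 7 mice, the same 7 as for the 254-bp exon (FDR 0.123 to 0.207).

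**Figure D3:**
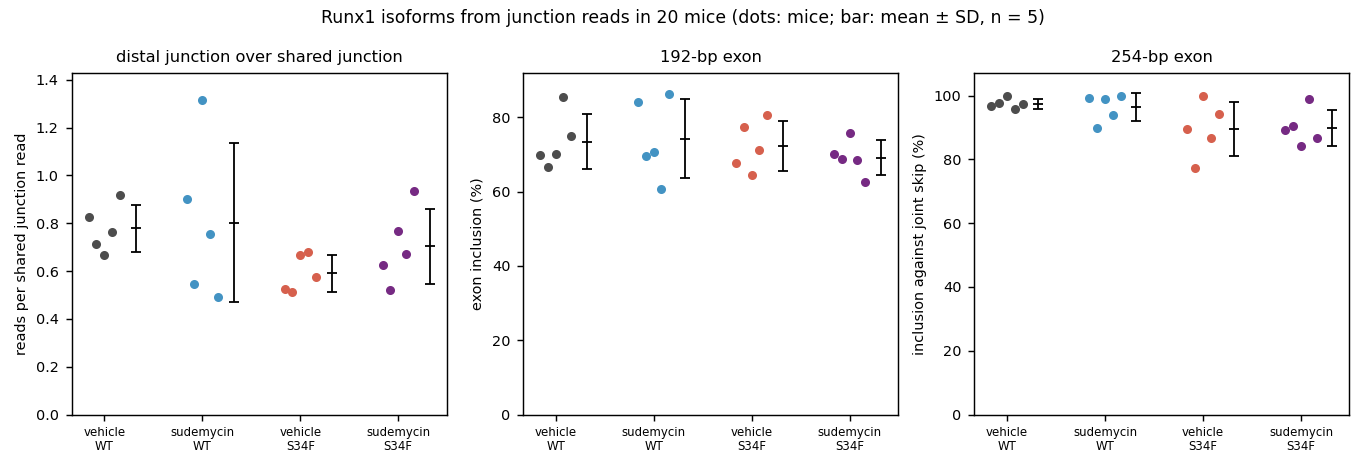
*Runx1* isoforms in the 4 groups: reads of the distal junction per read of the next junction, Ψ of the 192-bp exon (%) and Ψ of the 254-bp exon against a joint skip (%), with a dot per mouse and the mean ± SD (*n*=5). Under vehicle the distal ratio is 0.513 to 0.679 in U2AF1(S34F) mice and 0.667 to 0.917 in U2AF1(WT) mice, and the 192-bp exon overlaps among the 4 groups.

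*Etv6* encodes an ETS-family repressor needed by stem cells of the marrow. Its levels were 143, 126, 139, 127 and 129.7 CPM in U2AF1(WT) mice under vehicle, and 117, 96.7, 121, 114 and 118 CPM in vehicle-treated U2AF1(S34F) mice. The groups did not overlap, mutant mouse 3 was the lowest, and the log2 fold change of −0.24 ± 0.08 was called (FDR=0.041); without U2AF1(WT) mouse 1 the FDR was 0.105. With sudemycin D6 the levels were 116, 124, 124, 127 and 124 CPM in U2AF1(WT) and 126, 108, 120.5, 126 and 110.4 CPM in U2AF1(S34F), and neither the genotypes (−0.06 ± 0.07; FDR=0.52) nor the drug (FDR=0.48 and 0.68) differed by the test. The difference between sudemycin-treated U2AF1(S34F) and vehicle-treated U2AF1(WT), −0.17 ± 0.07, was called (FDR=0.071) but not without vehicle-treated U2AF1(WT) mouse 1 or 3 or sudemycin-treated U2AF1(S34F) mouse 6 or 12 (FDR 0.135 to 0.169), nor without the filter on low counts (FDR=0.167).

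An exon of *Etv6* that the annotation does not hold was used more in U2AF1(S34F) marrow. It lies at chr6:134065238-134065369 on the plus strand (mm9), is 132 bp long, and is joined from the first coding exon or from an annotated 159-bp cassette exon (chr6:134016325-134016483) and onward to the second coding exon. The 3′ splice sites of both exons and the full sequence of the unannotated exon are shown because the reads turn on them, with the last 3 intron bases in capitals in the first 2 lines and the first stop codon in capitals in the third.
Etv6 132-bp unannotated exon, 3′ splice site: ttcctgcctaaacttgaCAGaag
Etv6 159-bp exon, 3′ splice site: tctgctttgtgtttcccCAGcct
Etv6 132-bp unannotated exon: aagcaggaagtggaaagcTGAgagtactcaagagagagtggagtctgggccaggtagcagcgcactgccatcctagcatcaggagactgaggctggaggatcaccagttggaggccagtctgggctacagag
Read in the frame of the annotated start codon, both lengths are multiples of 3 and both exons hold stop codons: 3 in the 132-bp exon, the first TGA starting at base 19, and 2 in the 159-bp exon, the first at base 49. Transcripts that include either would end their reading frame there.

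From the 159-bp exon, the unannotated exon took 7.57, 8.06, 13.4, 9.14 and 4.26% of reads in U2AF1(WT) mice under vehicle, and 31.5, 17.7, 24.0, 25.3 and 22.8% in vehicle-treated U2AF1(S34F) mice. Every mutant mouse was above every U2AF1(WT) mouse, with means of 8.48 ± 3.30 and 24.3 ± 4.95% (*n*=5), a difference of 15.8 percentage points (quasi-binomial test over all splice site choices, FDR=0.0074). Under sudemycin D6 the shares were 3.83, 4.88, 5.69, 4.25 and 10.8% in U2AF1(WT) and 16.6, 19.4, 25.8, 23.2 and 21.1% in U2AF1(S34F), again without overlap (15.3 points; FDR=0.0016). The call held without each single mouse in turn in both comparisons, and limma on the logit of the share gave FDR=0.10 and 0.042. The direct junction from the 159-bp exon to the second coding exon fell in turn, from 87.8 ± 5.30 to 71.1 ± 4.26% between genotypes under sudemycin D6 (−16.8 points; FDR=0.011; limma 0.149). Under vehicle it was 80.9 ± 4.67 and 68.5 ± 5.78%, groups that overlapped and were not called (−12.4 points; FDR=0.109), and mutation and drug together was not called either (−9.85 points; FDR=0.118). These shares rest on 166 to 313 reads per mouse.

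From the first coding exon the unannotated exon was rarer, and it moved the same way. The shares were 0, 1.51, 2.54, 1.03 and 0.441% and 6.78, 6.35, 8.71, 2.89 and 7.29% in vehicle-treated U2AF1(WT) and U2AF1(S34F) mice, and 0.857, 0, 0, 0.971 and 1.61% and 5.30, 8.20, 3.56, 3.75 and 7.16% in the sudemycin-treated mice of both genotypes. The genotypes did not overlap under either treatment, and the differences were 5.30 points (FDR=0.022) and 4.91 points (FDR=0.025), held without each single mouse in turn; limma gave FDR=0.14 and 0.088. At the other end, the junction from the unannotated exon to the second coding exon made up 11.52 ± 2.39, 12.4 ± 2.32, 19.3 ± 4.07 and 18.6 ± 4.50% of reads there in the order of groups used above. It was not called between genotypes under vehicle (FDR=0.10) and was called for mutation and drug together (FDR=0.097; lost without any 1 of 7 mice, vehicle-treated U2AF1(WT) mice 1, 2, 4 and 5 and sudemycin-treated U2AF1(S34F) mice 6, 9 and 12, FDR 0.104 to 0.247). Inclusion of the annotated 159-bp exon itself was 54.2 ± 5.84, 56.6 ± 6.95, 58.6 ± 2.89 and 56.0 ± 5.40%, and no comparison was called. An unannotated 5′ splice site at chr6:134012146, joined to the 159-bp exon, took 7.99 ± 2.41 and 7.63 ± 3.66% of reads in the vehicle-treated U2AF1(WT) and U2AF1(S34F) groups and 2.49 ± 2.51 and 1.91 ± 1.49% in the sudemycin-treated ones. Of these comparisons only mutation and drug together was called (−6.08 points; FDR=0.049), and the call was lost without vehicle-treated U2AF1(WT) mouse 5 or sudemycin-treated U2AF1(S34F) mouse 2 or 12 (FDR 0.114 to 0.137). The junction from the first coding exon to the 159-bp exon, which competes with it, was higher in the same comparison (6.80 points; FDR=0.0496), lost without the same 3 mice (FDR 0.12 to 0.141). For mutation and drug together the shares of the unannotated exon were higher as well, by 12.7 points from the 159-bp exon (FDR=0.00786) and 4.49 points from the first coding exon (FDR=0.0196), and held without each single mouse in turn.

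**Figure D4:**
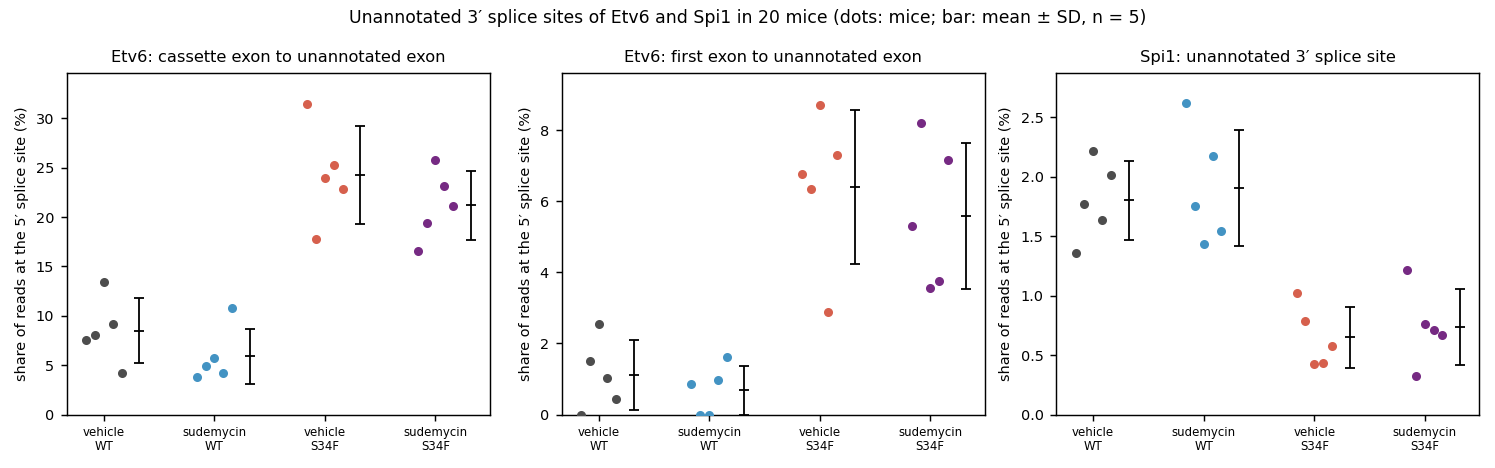
Share of the reads leaving a 5′ splice site (%) that go to the unannotated *Etv6* exon from the 159-bp cassette exon (left) or from the first exon (middle), and to the unannotated *Spi1* 3′ splice site (right), with a dot per mouse and the mean ± SD (*n*=5). The *Etv6* shares are higher and the *Spi1* share lower in every U2AF1(S34F) mouse than in every U2AF1(WT) mouse of the same treatment.

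*Spi1*, whose product PU.1 drives myeloid and B-cell fates, did not differ between groups at the gene level by the test. Levels were 275, 284, 278, 349.8 and 261 CPM in vehicle-treated U2AF1(WT), 262, 400.2, 451, 293 and 316 in sudemycin-treated U2AF1(WT), 242, 220.0, 264, 268 and 275 in vehicle-treated U2AF1(S34F) and 248, 300.3, 296, 247 and 295 in sudemycin-treated U2AF1(S34F). Mouse 4 of the first group and mice 8 and 9 of the second were the 3 highest of the 20. The log2 fold changes between genotypes were −0.20 ± 0.10 under vehicle (FDR=0.13) and −0.31 ± 0.14 under sudemycin D6 (FDR=0.11), the latter moving to −0.06 (FDR=0.665) without mice 8 and 9. It would have been called without sudemycin-treated U2AF1(WT) mouse 6 (FDR=0.0405) or 10 (FDR=0.0905).

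A 3′ splice site of *Spi1* that the annotation lacks, 183 bases upstream of the main annotated site reached from the same exon, was used less in U2AF1(S34F) marrow. Both are shown, with the last 3 intron bases in capitals, as choices of the same upstream exon (chr2, plus strand, first exon bases at 90939404 and 90939587 of mm9).
Spi1 unannotated site: cctctctacctcattgtTAGcac
Spi1 annotated site: acacctttctctctcggCAGcca
The unannotated site took 1.36, 1.77, 2.21, 1.64 and 2.02% of reads in vehicle-treated U2AF1(WT) and 1.02, 0.784, 0.425, 0.433 and 0.577% in vehicle-treated U2AF1(S34F) mice. Under sudemycin D6 it took 2.62, 1.75, 1.43, 2.17 and 1.54% in U2AF1(WT) and 1.21, 0.324, 0.764, 0.711 and 0.671% in U2AF1(S34F). All mutant mice were below all U2AF1(WT) mice of the same treatment, at 10 to 77 reads per mouse on the junction. The differences were −1.15 points under vehicle (FDR=0.017; limma 0.13) and −1.17 points under sudemycin D6 (FDR=0.033; limma 0.20), close to the minimum change of 1 point; under sudemycin D6 the change was below that minimum without U2AF1(WT) mouse 6 and lost FDR<10% without U2AF1(S34F) mouse 6 (FDR=0.108). The share of reads arriving at the annotated site from the same exon was 96.7 ± 0.955, 95.6 ± 1.23, 96.3 ± 0.599 and 94.3 ± 0.628%, called for mutation and drug together (−2.36 points; FDR=0.018). The unannotated site was lower in that comparison too (−1.06 points; FDR=0.0193), with a change below the minimum of 1 point without vehicle-treated U2AF1(WT) mouse 3 or sudemycin-treated U2AF1(S34F) mouse 6. The 191-bp coding exon that follows was included at group means of 99.7 to 99.8%, with no call.

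Among the 4 C/EBP genes, which encode leucine zipper factors of the granulocyte and monocyte lineages, *Cebpb* differed most between genotypes. *Cebpb*, known for stress-induced granulopoiesis, was at 116, 100.4, 131, 171 and 97.4 CPM in vehicle-treated U2AF1(WT) and 66.6, 51.6, 65.2, 41.9 and 61.8 CPM in vehicle-treated U2AF1(S34F) mice. The groups were separate, and the mean was 0.462 times that of U2AF1(WT) by the fit (log2 fold change −1.11 ± 0.17; FDR=0.00076). After sudemycin D6 it was at 70.6, 111, 129.8, 101 and 103 CPM in U2AF1(WT) and 57.3, 66.4, 67.1, 70.8 and 70.1 CPM in U2AF1(S34F). Here U2AF1(WT) mouse 6, at 70.6 CPM, lay just below mutant mouse 10, at 70.8 CPM, and the other 4 U2AF1(WT) mice were above all mutant mice (−0.64 ± 0.13; FDR=0.004; −0.46 without mice 8 and 9, FDR=0.010). The drug did not change *Cebpb* by the test in U2AF1(WT) (FDR=0.52) or U2AF1(S34F) (FDR=0.32), and mutation with drug against neither gave −0.89 ± 0.14 (FDR=0.00035). *Cebpb* overlaps *Tmem189* on the opposite strand, which had up to 2555 counts in a mouse, and whether the counting used strand was not given in the sources used here.

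*Cebpe*, which is needed for late granulocyte maturation, went the other way. It was at 93.5, 112, 90.3, 98.2 and 98.6 CPM in vehicle-treated U2AF1(WT) and 138, 131, 124, 187 and 166 CPM in vehicle-treated U2AF1(S34F) mice, without overlap (0.59 ± 0.11; FDR=0.0022). Under sudemycin D6 it was at 97.0, 150.1, 193, 101 and 86.3 CPM in U2AF1(WT), where mice 8 and 9 were the highest, and 119, 128, 151, 107 and 148 CPM in U2AF1(S34F). That genotype difference was 0.06 ± 0.20 (FDR=0.86) with all mice and 0.47 (FDR=0.0079) without mice 8 and 9. The drug difference in U2AF1(WT), 0.32 ± 0.19 (FDR=0.50), likewise moved to −0.06 (FDR=0.822) without them. The summed level of the neutrophil markers was higher too under vehicle, 29728 to 43678 CPM in U2AF1(WT) and 57023 to 94817 CPM in U2AF1(S34F) mice. Of the 6 markers 2 were called higher, beside 19.7% of all genes, and their part in the *Cebpe* result was not tested. *Cebpe* had 6 junctions, and the 1 intron measured was spliced in the annotated way in at least 99% of reads in every mouse.

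*Cebpd*, an inflammation-responsive member of the family, was called only between genotypes under sudemycin D6. There it was at 99.0, 130.2, 169, 122 and 100.3 CPM in U2AF1(WT) and 86.8, 89.6, 93.0, 77.0 and 90.2 CPM in U2AF1(S34F), without overlap (−0.51 ± 0.13; FDR=0.013; −0.29 and FDR=0.025 without mice 8 and 9). Under vehicle it was at 93.4, 80.7, 97.1, 148 and 111 CPM in U2AF1(WT) and 103, 92.3, 84.0, 92.5 and 99.7 CPM in U2AF1(S34F), which overlapped (FDR=0.34). For mutation and drug together *Cebpd* had −0.28 ± 0.13 at an FDR of 0.1003, just past the threshold, and was called without vehicle-treated U2AF1(WT) mouse 1 (FDR=0.092) or 2 (FDR=0.021). *Cebpa*, which sets the granulocyte-monocyte path, had group means of 53.2 ± 9.58, 50.5 ± 3.44, 50.4 ± 5.05 and 52.5 ± 7.03 CPM (mean ± SD, *n*=5), and no comparison was called. Its 95% interval for the genotype difference under vehicle ran from −0.31 to 0.13 on the log2 scale. *Cebpa*, *Cebpb* and *Cebpd* are known as intronless genes and had no junction reads, and the annotation used here labels *Cebpd* a pseudogene.

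Most of the listed genes that regulate or pair with C/EBP factors were lower in U2AF1(S34F) marrow. Of 6 listed genes, 4 were called lower and none higher between genotypes under vehicle, and 4 lower and 1 higher under sudemycin D6, with list medians of −0.75 and −0.43 beside medians of 0.002 and −0.03 over all genes. Over all genes 19.8% and 19.6% were called lower in these comparisons. *Trib1*, which targets C/EBPα for degradation, averaged 392 ± 97.1 CPM in vehicle-treated U2AF1(WT) and 85.9 ± 35.5 CPM in vehicle-treated U2AF1(S34F) (log2 fold change −2.20 ± 0.28; FDR=0.00048). *Atf4* averaged 244 ± 39.1 CPM in vehicle-treated U2AF1(WT) and 132 ± 18.6 CPM in vehicle-treated U2AF1(S34F) (log2 fold change −0.90 ± 0.12; FDR=0.00026), and *Ddit3*, the C/EBP-like factor CHOP, averaged 17.2 ± 2.37 CPM in vehicle-treated U2AF1(WT) and 10.3 ± 0.705 CPM in vehicle-treated U2AF1(S34F) (log2 fold change −0.75 ± 0.11; FDR=0.00033). Sudemycin D6 lowered 4 of the 6 in U2AF1(WT), among them *Ddit3* (−0.76 ± 0.12), *Atf4* (−0.62 ± 0.11) and *Nfil3* (−0.47 ± 0.10), and 1 of 6, *Ddit3*, in U2AF1(S34F) (−0.42 ± 0.10). The drug lowered 1.89% of all genes in U2AF1(WT) and 5.85% in U2AF1(S34F). With mutation and drug together 5 of the 6 were lower and 1 higher, beside 25.1% of all genes in each direction. Of 13 granulocyte target genes, 3 were called higher and 2 lower between genotypes under vehicle, a share near the 39.5% called over all genes: *Camp* (0.41 ± 0.14) and *Mmp8* (0.37 ± 0.12), granule genes, were higher, and *Csf1r*, the macrophage colony-stimulating factor receptor, was lower (−0.85 ± 0.13). Sudemycin D6 called none of the 13 in either genotype by edgeR.

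*Gfi1*, a zinc finger repressor required for neutrophil differentiation, was higher in U2AF1(S34F) marrow under vehicle. Levels were 50.8, 50.5, 45.8, 50.7 and 46.6 CPM in U2AF1(WT), a narrow group, and 58.9, 57.8, 52.0, 85.5 and 73.4 CPM in U2AF1(S34F), without overlap (0.41 ± 0.12; FDR=0.021). In sudemycin-treated mice it was at 51.8, 79.7, 75.9, 61.4 and 54.4 CPM in U2AF1(WT) and 57.4, 57.7, 82.8, 62.0 and 65.8 CPM in U2AF1(S34F), with no genotype difference called (0.01 ± 0.14; FDR=0.97; 0.23 and FDR=0.152 without mice 8 and 9). The drug's difference in U2AF1(WT), 0.38 ± 0.12, had groups that did not overlap (4.15% of all genes did not) but missed the threshold in edgeR (FDR=0.14) and passed it in DESeq2 (FDR=0.075) and without mouse 6 (FDR=0.067); without mice 8 and 9 it was 0.19 (FDR=0.287). In U2AF1(S34F) it was −0.01 ± 0.14 (FDR=0.97). Mutation and drug together gave 0.41 ± 0.10 (FDR=0.0041), without overlap. *Gfi1* overlaps the antisense transcript *A430072P03Rik*, which had at most 100 counts. Its junctions, 94.2% of whose reads were on annotated introns, gave no call: the share of reads arriving at chr5:108152906 from the most read of several upstream splice sites, at chr5:108154975, was 51.0 ± 13.8 and 58.3 ± 4.85% in the vehicle-treated U2AF1(WT) and U2AF1(S34F) groups. Of 5 listed corepressors of GFI1, 1 was called, *Hdac2*, higher between genotypes under vehicle (0.42 ± 0.07), where 19.7% of all genes were called higher.

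*Gfi1b*, the erythroid and megakaryocytic paralogue, was the only 1 of the 10 genes that edgeR called for the drug within a genotype. It was at 5.78, 6.44, 2.84, 2.33 and 4.38 CPM in U2AF1(S34F) mice under vehicle and 2.37, 2.10, 1.60, 2.73 and 1.77 CPM under sudemycin D6. Vehicle-treated mouse 7, at 2.33 CPM, fell within the treated range, and the other 4 lay above it, giving −1.03 ± 0.27 (FDR=0.044); without vehicle-treated mouse 1 the FDR was 0.104. In U2AF1(WT) mice it was at 5.38, 4.30, 5.79, 3.94 and 3.87 CPM under vehicle and 6.57, 1.72, 2.36, 5.79 and 3.08 CPM under sudemycin D6, with no change by the test (−0.26 ± 0.32; FDR=0.80). Mice 8 and 9 had 1.72 and 2.36 CPM there, and without them the difference was 0.15 (FDR=0.822). The interaction was −0.78 ± 0.45 (FDR=0.73), so the 2 drug effects are not shown to differ. Between genotypes, *Gfi1b* was lower in U2AF1(S34F) under sudemycin D6 (−0.89 ± 0.34; FDR=0.072), a call lost without U2AF1(WT) mouse 6 or 10 or U2AF1(S34F) mouse 2, 6, 9 or 12 (FDR 0.107 to 0.173) but kept without mice 8 and 9 (−1.27; FDR=0.0022). Mutation and drug together gave −1.12 ± 0.18 (FDR=0.00042) without overlap.

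Some other genes of these lineages moved with the drug in U2AF1(S34F), where 5.85% of all genes were called lower. Summed megakaryocyte markers (5 genes) had a median of 41.8 CPM in U2AF1(S34F) mice under vehicle and 23.0 CPM under sudemycin D6, with 2 of 5 called lower. Summed erythroid markers went the other way, with medians of 378 and 455 CPM, although 1 of 6 was called lower. None of these markers was at 0, and their part in the *Gfi1b* result was not tested. Of 9 listed erythroid and megakaryocyte factors, 3 were lower by the drug in U2AF1(S34F), among them *Tal1*, a helix-loop-helix factor of stem and erythroid cells (−0.65 ± 0.16). Between genotypes under vehicle 4 were lower and 1 higher, beside 19.8% and 19.7% of all genes. *Gata2*, a factor of stem cells and mast cells (−1.19 ± 0.23), and *Lyl1* (−0.46 ± 0.09) were lower and *Lmo2* (0.29 ± 0.07) higher. Beside *Gata2*, 2 of 4 basophil and mast cell markers were called lower, with medians of the summed level of 270.3 CPM in vehicle-treated U2AF1(WT) and 151 CPM in vehicle-treated U2AF1(S34F), and their part was not tested. With mutation and drug together 7 of the 9 factors were lower, with *Zfpm1* (−1.59 ± 0.22), *Klf1* (−1.43 ± 0.25) and *Gata1* (−1.31 ± 0.21) among them. In that comparison 4 of 5 megakaryocyte markers and 1 of 6 erythroid markers were called lower, beside 25.1% of all genes. Medians of the summed megakaryocyte markers were 50.5 and 23.0 CPM and those of the erythroid markers 271 and 455 CPM, and their part was not tested. The genes whose log2 CPM followed *Gfi1b* most closely over the 20 mice were *Aqp1* (Pearson *r*=0.96), *Abcb4* (0.96) and *Car2* (0.96). The *Gfi1b* junctions held only 3 to 48 reads per mouse at the splice site with most reads of a minor isoform, and no choice was called.

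*Ikzf1* was the gene with the most reads of the 10, at 17336 to 24581 counts per mouse. Levels were 424, 391, 433, 445 and 430.3 CPM in vehicle-treated U2AF1(WT) and 342, 319, 385, 403 and 382 CPM in vehicle-treated U2AF1(S34F) mice. The groups overlapped by U2AF1(WT) mouse 2 and mutant mouse 7, and the difference of −0.22 ± 0.09 was called at FDR=0.064. It was lost without vehicle-treated U2AF1(WT) mouse 1, 3, 4 or 5 or U2AF1(S34F) mouse 1 or 3 (FDR 0.104 to 0.148) and without the filter on low counts (FDR=0.128). Under sudemycin D6 it was at 395, 515, 517, 415 and 452 CPM in U2AF1(WT) and 387, 416, 431, 379 and 371 CPM in U2AF1(S34F), and the difference of −0.21 ± 0.09 was not called (FDR=0.10; −0.08 and FDR=0.504 without mice 8 and 9). No drug comparison was called (FDR=0.76 and 0.42). Of the other 4 Ikaros-family genes, 2 were called lower between genotypes under vehicle, beside 19.8% of all genes. With mutation and drug together *Ikzf2* was lower (−0.84 ± 0.14) and *Ikzf5* higher (0.24 ± 0.07).

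*Ikzf1* splicing gave most of the calls among these genes, and *Ikzf1* also held many of the tests. Between genotypes under vehicle it held 13 of the 24 cassette events and 41 of the 121 site choices tested. Under sudemycin D6 it held 16 of 35 and 43 of 141. Over all members, 4 of 24 cassette exon events tested were called between genotypes under vehicle, each an *Ikzf1* event (background 5.89% of 17272 events), and 8 of 121 splice site choices, 5 of *Ikzf1*, 2 of *Etv6* and 1 of *Spi1* (background 2.91% of 100960). Under sudemycin D6 the genotypes differed in 2 of 35 cassette events (background 4.71%) and 7 of 141 site choices (background 2.46%). Sudemycin D6 changed none of 35 cassette events and none of 131 site choices in U2AF1(WT) (backgrounds 2.01% and 0.75%; 4 and 13 had an unadjusted *P* under 0.05), and 2 of 26 and 2 of 126 in U2AF1(S34F) (backgrounds 2.09% and 0.738%). With mutation and drug together 4 of 26 and 14 of 125 were called (backgrounds 9.72% and 6.01%), and no interaction was called (backgrounds 0.0243% and 0.00201%; 1 and 4 at an unadjusted *P* under 0.05). Several of these share reads, since 1 exon enters as a cassette event and through the sites on either side. On the logit share, limma called 0 and 1 of the cassette events and 0 and 2 of the site choices between genotypes under vehicle and under sudemycin D6, so these calls depend on the test.

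The exons concerned are shown by their 3′ splice sites, with the last 3 intron bases in capitals, in the order in which they lie on chr11 (plus strand, mm9), together with the rarely used 60-bp exon in full, since its use followed genotype most clearly.
Ikzf1 60-bp exon, 3′ splice site: ttttgccttctctattgCAGttg
Ikzf1 261-bp exon, 3′ splice site: tcctgtgttgtctctttCAGcca
Ikzf1 123-bp exon, 3′ splice site: ctcaattgtgttttctgCAGttg
Ikzf1 135-bp exon, 3′ splice site: ctaactgtctttgacttTAGtca
Ikzf1 60-bp exon: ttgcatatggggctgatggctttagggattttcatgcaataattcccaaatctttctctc
The 60-bp exon (chr11:11640953-11641012) lies before the 261-bp exon (chr11:11648314-11648574), which encodes the first zinc finger. Its length is a multiple of 3 and it holds no stop codon in frame, so it would add residues without ending the reading frame. The 123-bp exon (chr11:11658198-11658320) and the 135-bp exon (chr11:11661222-11661356) follow further downstream, and their lengths are multiples of 3 too.

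The 60-bp exon was included more in U2AF1(S34F) marrow under both treatments. Set against direct joining to the 261-bp exon, its Ψ was 1.25, 3.07, 1.10, 0.973 and 1.91% in vehicle-treated U2AF1(WT) and 4.96, 3.43, 3.62, 2.99 and 2.84% in vehicle-treated U2AF1(S34F) mice. U2AF1(WT) mouse 2 lay within the mutant range and the other 4 below it (ΔΨ=1.91 points; FDR=0.0027). Under sudemycin D6 Ψ was 0.629, 0.596, 1.06, 1.32 and 1.31% in U2AF1(WT) and 2.41, 2.66, 3.38, 3.19 and 2.23% in U2AF1(S34F), without overlap (ΔΨ=1.79 points; FDR=3.3e-05). Both calls held without each single mouse in turn, and limma gave FDR=0.25 and 0.11. In the event that skips to the 168-bp exon, the Ψ of the 60-bp exon was 2.46 ± 0.788, 1.02 ± 0.409, 4.77 ± 0.874 and 3.51 ± 1.11% in the order of groups used above, called between genotypes under sudemycin D6 (FDR=0.00073) and under vehicle (FDR=0.083; lost without vehicle-treated U2AF1(WT) mouse 1, 3 or 4 or U2AF1(S34F) mouse 1, 5 or 7, FDR 0.131 to 0.177). In the 2 drug comparisons the 60-bp exon was not called.

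For the 261-bp exon itself no difference was called. Its Ψ was 64.1 ± 4.97, 64.6 ± 4.23, 66.98 ± 3.03 and 68.4 ± 1.54% in the same order; the genotype difference was 2.84 points under vehicle (FDR=0.51) and 3.80 points under sudemycin D6 (FDR=0.35). The 123-bp exon was included at 88.2 ± 1.21% in vehicle-treated U2AF1(WT) and 91.7 ± 1.72% in vehicle-treated U2AF1(S34F) mice (ΔΨ=3.43 points; FDR=0.078), a call lost without U2AF1(WT) mouse 1, 3 or 5 or U2AF1(S34F) mouse 7 or 11 (FDR 0.116 to 0.248). Under sudemycin D6 it was 90.1 ± 2.52 and 91.6 ± 1.67%, not called between genotypes. The 168-bp exon between them, which encodes further zinc fingers, was included at 97.2 ± 0.817, 99.1 ± 1.79, 98.9 ± 0.965 and 98.7 ± 0.972%. This was measured against a skip that also passes over the 123-bp and 135-bp exons, and no difference was called.

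Sudemycin D6 raised the joint skip of the 123-bp and 135-bp exons in U2AF1(S34F) marrow. The junction that skips both (chr11:11654177-11668884) took 2.45, 2.86, 2.22, 2.83 and 2.95% of reads leaving its 5′ splice site in U2AF1(S34F) mice under vehicle and 5.67, 5.10, 4.26, 6.00 and 5.30% under sudemycin D6. Every treated mouse was above every vehicle-treated mouse (2.60 points; FDR=0.035), and the call was just lost without sudemycin-treated mouse 2 (FDR=0.1002). In U2AF1(WT) mice the share was 2.92, 3.75, 4.42, 7.01 and 3.599% under vehicle and 4.79, 5.32, 7.40, 4.08 and 4.46% under sudemycin D6, which overlapped and were not called. The vehicle-treated U2AF1(S34F) group, not the sudemycin-treated one, was the lowest of the 4, and the interaction was not called (FDR=0.88). Read as cassette events against this junction, the 123-bp exon fell by 4.84 points (FDR=0.0081) and the 135-bp exon by 4.79 points (FDR=0.013). Those calls rest on the same reads and held without each single mouse. In each event 1 of the inclusion junctions itself skips the other exon and had far fewer reads, so halving the inclusion reads enlarges the change. Against the skip of the 123-bp exon alone, its Ψ was 91.7 ± 1.72 and 91.6 ± 1.67% under vehicle and sudemycin D6. For the 135-bp exon alone it was 91.8 ± 2.47 and 91.9 ± 1.45%, and neither was called. By limma the FDR was 0.34 for the joint skip and 0.31 and 0.31 for the cassette events. Skipping of the 135-bp exon alone was 5.18 ± 1.91 and 8.35 ± 2.47% in the vehicle-treated U2AF1(WT) and U2AF1(S34F) groups and was called only for mutation and drug together (2.74 points; FDR=0.092), lost without any 1 of 7 mice (vehicle-treated U2AF1(WT) mice 1, 4 and 5 and sudemycin-treated U2AF1(S34F) mice 2, 6, 9 and 10; FDR 0.136 to 0.204).

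The other *Ikzf1* calls came from the splice sites on either side of the same exons. At the 3′ splice site of the 261-bp exon, the share of reads from the 60-bp exon was higher and that from the direct junction lower between genotypes, by 2.23 and −2.50 points under vehicle (FDR=0.0836 and 0.0596) and by 1.97 and −2.28 points under sudemycin D6 (FDR=0.016 and 0.0253). The share of reads leaving the upstream exon for the 60-bp exon was higher under sudemycin D6 (1.21 points; FDR=0.0328). The vehicle calls were each lost without some single mice, U2AF1(WT) mice 1, 3 and 4 and U2AF1(S34F) mouse 1 among them for both, and without mice 8 and 9 the direct junction and the junction into the 60-bp exon were no longer called under sudemycin D6 (FDR=0.138 and 0.108), the latter also without U2AF1(S34F) mouse 9 (FDR=0.117). For mutation and drug together the 60-bp exon was included more against direct joining (1.11 points; FDR=0.0558) and at the 3′ splice site (1.58 points; FDR=0.0992), and its joining past the 261-bp exon was lower (−19.97 points; FDR=0.0919), the last on 10 to 57 reads per mouse. Those 10 to 57 reads are all that leave the 60-bp exon. The junction past the 261-bp exon itself averaged 4.6 reads (0 to 9) in vehicle-treated U2AF1(WT) mice. In sudemycin-treated U2AF1(S34F) mice it averaged 0.6 (0 to 3). Each of these 3 calls was lost without sudemycin-treated U2AF1(S34F) mouse 9 or 10, among others. The last could be fitted in only 5 of the 10 single-mouse omissions and was lost in 4 of those.

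Around the 123-bp exon, its inclusion against the joint skip was higher in vehicle-treated U2AF1(S34F) than in vehicle-treated U2AF1(WT) marrow (3.54 points; FDR=0.0885), as was the share of reads leaving the exon before it for the 123-bp exon (4.48 points; FDR=0.0952). At the 3′ splice site of the 135-bp exon, reads from the 123-bp exon were higher by 4.09 points (FDR=0.0678) and reads that skip it were lower (−3.71 points; FDR=0.0924). All 4 calls were lost without U2AF1(WT) mouse 3 or U2AF1(S34F) mouse 7 or 11, and in part without others. For mutation and drug together, inclusion of the 123-bp exon was higher (3.40 points; FDR=0.052), with 3.98 points more reads from it (FDR=0.0458) and −3.71 points for the skip (FDR=0.0589), all lost without sudemycin-treated U2AF1(S34F) mouse 9 or 10. The 135-bp exon went the other way there. Its inclusion differed by −2.28 points (FDR=0.0853; lost without the same 7 mice as its skipping), and the share of reads that reach the next exon from it was 87.4 ± 1.98% in vehicle-treated U2AF1(WT) and 81.99 ± 1.17% in sudemycin-treated U2AF1(S34F) mice, without overlap (−5.38 points; FDR=0.0251), and held without each single mouse in turn. By limma 1 of these calls passed FDR<10%, the joining past the 261-bp exon (0.0983), which rests on the few reads given above.

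**Figure D5:**
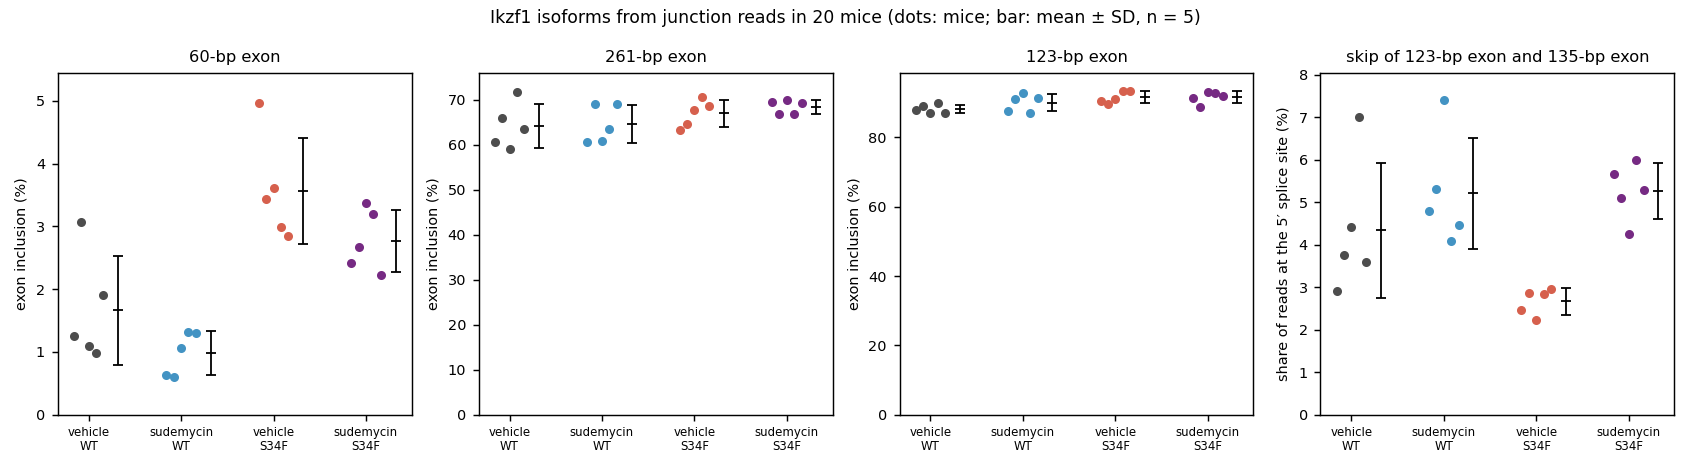
*Ikzf1* isoforms in the 4 groups: Ψ (%) of the 60-bp, 261-bp and 123-bp exons and the share of reads at the 5′ splice site that skip the 123-bp and 135-bp exons (%), with a dot per mouse and the mean ± SD (*n*=5). The 60-bp exon is at 0.596 to 3.07% in U2AF1(WT) mice and 2.23 to 4.96% in U2AF1(S34F) mice, and the joint skip is at 2.22 to 2.95% under vehicle and 4.26 to 6.00% under sudemycin D6 in U2AF1(S34F) mice.

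Across the sites printed above, those used more in U2AF1(S34F) marrow in both genotype comparisons, the *Ikzf1* 60-bp exon and the *Etv6* 132-bp exon, have CAG as the last 3 intron bases, and the site used less in both, in *Spi1*, has TAG beside an annotated competitor with CAG. Of 165339 annotated 3′ splice sites with junction reads, 64.1% have C and 29.6% have T at that position, so either base is common. The sites that compete with the *Ikzf1* 60-bp exon, those of the 261-bp and 168-bp exons, have CAG too. So do those that compete with the *Etv6* 132-bp exon, of the 159-bp exon and the second coding exon. Only at *Spi1* does the base differ between the competing sites. The printed *Runx1* sites have TAG, and no *Runx1* event was called between genotypes under either treatment. With 3 sites this is a description only.

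Partners of the other members moved as follows, beside 19.7% of all genes called higher and 19.8% lower between genotypes under vehicle. Of 5 RUNX partners and paralogues tested, 3 were lower and 1 higher between genotypes under vehicle: *Cbfa2t3*, a corepressor (−1.34 ± 0.17), *Runx2* (−0.89 ± 0.14) and *Runx3* (−0.73 ± 0.12) were lower, and *Cbfb*, the subunit that RUNX proteins bind, was higher (0.31 ± 0.07). Of 10 other ETS factors, 3 were lower, *Ets2* (−1.35 ± 0.14), *Etv3* (−0.58 ± 0.08) and *Elf4* (−0.57 ± 0.12), and 4 higher, *Erg* among them (0.48 ± 0.13). The drug lowered 2 of the 10 in U2AF1(WT), *Ets2* (−0.75 ± 0.14) and *Elf1* (−0.33 ± 0.09), and 2 in U2AF1(S34F), *Ets1* (−0.37 ± 0.09) and *Elf1* (−0.23 ± 0.06). Over all genes the drug lowered 1.89% and 5.85%, respectively. Of 7 B-lineage factors, 4 were lower between genotypes under vehicle, *Foxo1* among them (−1.29 ± 0.20), and 5 under sudemycin D6, where 19.6% of all genes were lower. None was called for the drug in either genotype by edgeR. Of 5 B-cell markers, 3 were called lower between genotypes under sudemycin D6 and none under vehicle, and their part was not tested. Of 10 monocyte and stem cell factors, the drug lowered 3 in U2AF1(WT) and 5 in U2AF1(S34F) and raised none. Between genotypes 4 were lower and 2 higher under vehicle, and 3 were lower under sudemycin D6. Among the 10, *Egr1*, an immediate-early gene, fell most under sudemycin D6, in U2AF1(WT) (−2.27 ± 0.29) and in U2AF1(S34F) (−1.87 ± 0.27). It was also lower between genotypes under vehicle (−2.61 ± 0.35).

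The levels of some of the 10 genes followed each other over the 20 mice, which share the 2 genotypes, the 2 treatments and the spread of cell types between mice. Pearson *r* of log2 CPM was 0.85 between *Cebpe* and *Gfi1*, 0.83 between *Runx1* and *Etv6*, and 0.88 between *Spi1* and *Ikzf1*. The genes most like each member by this measure were *Rel* (0.89) and *Sf1* (0.88) for *Runx1*, after a gene without a symbol in the annotation (0.91), and *Srrm2* (0.90) and *Ppp2r5e* (0.89) for *Etv6*. *Spi1* was followed most closely by *Rac2* (0.97), *Tln1* (0.96) and *Tbc1d10b* (0.96), and *Ikzf1* by *Klf7* (0.97), *Map3k9* (0.97) and *Trp53inp2* (0.96). *Cebpb* was followed by *Notch1* (0.95), *Foxj2* (0.94) and *Tmem184b* (0.94), *Cebpd* by *Dvl1* (0.91), *Mid1ip1* (0.91) and *Zfp276* (0.90), and *Cebpe* by *Tfdp1* (0.95), *Fbxo18* (0.94) and *Arhgdib* (0.94). For *Gfi1* they were *Agpat2* (0.92), *1700020L24Rik* (0.91) and *Prom1* (0.90). *Cebpa* had no gene above 0.68 (*Tusc1*).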

How the data were processed

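Per the labels and the study's methods, RNA from bulk bone marrow of 20 mice was made into stranded, ribosomal RNA-depleted libraries and read in pairs of 126 bp. The authors aligned the reads with TopHat 2.0.8 to mm9 and deposited whole-number read counts per Ensembl gene and per splice junction for each mouse; the counting program is not given in the sources used here. Junctions took their gene from the deposited table.

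Gene counts were tested with edgeR 4.0.16 (TMM, filterByExpr, quasi-likelihood) in R 4.3.3 over all genes, in pairs of groups, with Benjamini-Hochberg adjustment. Exon inclusion and splice site shares were tested on junction reads with a quasi-binomial model per mouse whose variances were moderated with limma 3.58.1 (at least 10 reads per mouse on average, both isoforms read in 50% of the mice, a change above 1 percentage point); the second minimum was added after the spread of *P* values among sparse events had been seen. The Ψ of an exon sets the reads of its inclusion junctions on both sides, summed and halved, against those of the skipping junction. Where the skip passes over a neighbouring exon too, 1 of the inclusion junctions itself skips that neighbour and had few reads. Halving then makes Ψ lower than the share of reads that include the exon. This holds, among others, for the *Runx1* 254-bp exon, the *Ikzf1* 168-bp exon and the *Ikzf1* events against a skip of more than 1 exon. On simulated counts for genotype under vehicle, with 200 genes changed among 14728 or 14703, edgeR recovered 32.5% at a log2 fold change of 0.5 and 99.5% at 1; for 200 cassette events among 17214 or 17210, the test recovered 47% at a change in share of 0.1 and 98.5% at 0.2, and for 200 splice site choices among 98303 or 98210 it recovered 16.5% and 92.5%. The changed genes and events were drawn from well-read ones, the events with intermediate shares, and the spread between mice was set in advance. Rare isoforms and smaller changes, such as those of the *Ikzf1* 60-bp exon and the unannotated *Spi1* site, were not simulated, so these recovery rates do not cover them. DESeq2 1.42.0, limma on the logit share, other filters and scalings, and omission of each mouse were alternatives.

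All 10 members are named whatever they did, with the events called in any comparison; the related genes and cell type markers came from written lists, and of the former those called with the greatest change are named. The members and the lists were chosen with earlier results of these data known. Mice are treated as replicates, but donor marrow was pooled, so *P* values measure the spread between recipients. Sequences are from the mm9 reference; protein sequences were not used here.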

Additional observations from a re-analysis of the deposited data

Results flagged for a closer look

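Of 148 groups of 5 mice examined for a mouse far from the others, 9 had one, and 2 of these were among the 40 gene-level groups; by Dixon's criterion chance flags about 1 in 20 groups. *Spi1* was at 349.8 CPM in vehicle-treated U2AF1(WT) mouse 4, against 261 to 284 CPM in the other mice of its group. *Etv6* was at 96.7 CPM in vehicle-treated U2AF1(S34F) mouse 3, against 114 to 121 CPM. The unannotated *Etv6* exon took 10.8% of reads from the 159-bp exon in sudemycin-treated U2AF1(WT) mouse 12 and 3.83 to 5.69% in its group otherwise.

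At *Ikzf1*, sudemycin-treated U2AF1(WT) mouse 9 had a Ψ of 85.8% for the 135-bp exon against the joint skip (others 90.5 to 92.2%) and 7.08% of reads at the downstream 3′ splice site from the joint skip (others 4.23 to 5.05%), which rest on the same reads. Vehicle-treated U2AF1(S34F) mouse 1 had 94.0% of reads at the 3′ splice site of the 261-bp exon from the direct junction (others 95.7 to 96.2%) and 5.65% from the 60-bp exon (others 2.89 to 3.34%), again the same reads. Reads from the 60-bp exon that pass over the 261-bp exon made up 5.77% in sudemycin-treated U2AF1(S34F) mouse 6 and were at 0 in the rest of that group, at 32 to 57 reads per mouse. At *Runx1*, the unannotated site took 4.10% in sudemycin-treated U2AF1(WT) mouse 6 and 0 to 0.783% in the others.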

How the results depend on the processing

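Among member gene values recomputed under the alternatives, 1023 stayed called or uncalled as before, 25 lost and 12 gained a call. No difference called in the main test changed sign. Some uncalled ones did, among them *Cebpe* for the drug in U2AF1(WT), from 0.32 to −0.06. Among splicing values 368 kept and 206 lost a call, all of the latter under limma or a fit on fewer mice. For genes, 1 model of all mice called 5 in place of 3 between genotypes under sudemycin D6, and DESeq2 called 1 in place of 0 for the drug in U2AF1(WT). Without single mice the gene counts ranged from 4 to 6 and 2 to 4 for the genotype comparisons, 0 to 1 for the drug in each genotype and 4 to 7 for mutation and drug together; the counts moved without sudemycin-treated U2AF1(WT) mouse 6 (1 for the drug in that genotype) and without vehicle-treated U2AF1(S34F) mouse 1 (0 for the drug in U2AF1(S34F)).

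For cassette exons, limma on the logit share called 0 in place of 4 between genotypes under vehicle, 1 in place of 2 under sudemycin D6, 0 in place of 2 for the drug in U2AF1(S34F), and 0 in place of 4 for mutation and drug together. For splice site choices it called 0 in place of 8, 2 in place of 7, 0 in place of 2 and 2 in place of 14. Without mice 8 and 9, an alternative chosen after seeing the data, 4 cassette exons were called between genotypes under sudemycin D6. Without single mice the cassette counts ranged from 1 to 5 between genotypes under vehicle (1 or 2 without U2AF1(WT) mouse 3 or 4 or U2AF1(S34F) mouse 1, 5, 7 or 11) and from 0 to 4 for mutation and drug together (0 to 2 without vehicle-treated U2AF1(WT) mouse 1, 3 or 5 or sudemycin-treated U2AF1(S34F) mouse 2, 6, 9 or 10). Site counts ranged from 3 to 11 between genotypes under vehicle (3 to 5 without U2AF1(WT) mouse 1, 3 or 5 or U2AF1(S34F) mouse 1, 7 or 11), from 0 to 1 for the drug in U2AF1(WT) (1 without vehicle-treated mouse 2), from 1 to 3 in U2AF1(S34F) (1 without sudemycin-treated mouse 2), and from 6 to 16 for mutation and drug together (6 to 9 without vehicle-treated U2AF1(WT) mouse 5 or sudemycin-treated U2AF1(S34F) mouse 2, 6, 9 or 12). Except for the smaller number of mice in some fits, the cause was not tested.

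Whether the mouse numbers that both genotypes share pair the samples was not settled. Between mice of the same number, the correlation of deviations was 0.12, 0.15 and −0.11 under vehicle and −0.04, 0.27, 0.37 and −0.18 under sudemycin D6. Mice of different numbers were not correlated for comparison, so these values cannot decide it. With a replicate block on these numbers 5 member genes were called between genotypes under vehicle and 3 under sudemycin D6 (6 and 3 for the same mice without the block), and 0 cassette exons and 0 site choices in either comparison by limma (without the block 0 and 0 cassette exons, 1 and 0 site choices). No paired analysis was possible for the drug comparisons because the mice of a genotype share no numbers across treatments. Depth limits mostly the splicing of *Gfi1b*, *Runx1* and the unannotated sites, where few reads per mouse set each share.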
